A study of Homo sapiens with 6 samples.

Results

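The insulin-like growth factor (IGF) axis genes described here are IGFBP5, its family members IGFBP2, IGFBP3, IGFBP4 and IGFBP6, the receptors IGF1R and IGF2R, and the adaptors IRS1 and IRS2. These 9 genes, of 57209 gene identifiers in the count tables, were taken by name, and each was read together with any annotated gene whose exons overlap its own on the other strand. IGFBP5 alone had such a partner, the antisense gene AC007563.2, and the other 8 had none. The cells were of the established human line MB157, labelled triple-negative breast cancer, which the sample titles describe as carrying the Cas9 nuclease and which were kept under puromycin. The series design instead speaks of MB157 with stable SOX9 expression, and which of these statements holds was not tested. The groups were cells given a guide RNA (sgRNA) against SOX9 and cells given a control sgRNA. Both were harvested after 4 days and sorted for the top 50% of sgRNA-expressing cells, so each sample was a pool of cells from 1 line and not an edited clone. There were 3 libraries in each group, 6 in all, which the labels call technical replicates, so p-values measure only the spread between libraries of this kind. The question was which genes depend on SOX9, a transcription factor of progenitor cells.

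IGF1 and IGF2 are secreted ligands that activate the receptor tyrosine kinase IGF1R, which signals through the docking proteins IRS1 and IRS2 to PI3K, AKT and mTOR. IGF2R binds IGF2 and carries it to lysosomes without a kinase of its own. The IGF binding proteins (IGFBPs) hold the ligands outside the cell and either keep them from the receptor or deliver them to it; in the mammary gland IGFBP5 is best known for its rise during involution, and IGFBP4 and IGFBP5 are cut by the protease PAPPA.

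AC007563.2 lies head to head with IGFBP5 and begins inside its first exon. On GRCh37, IGFBP5 (ENSG00000115461) occupies chr2:217536828-217560248 on the minus strand with 4 exons of 6442 bp in all. AC007563.2 (ENSG00000236886) occupies chr2:217559187-217858802 on the plus strand, with 6 exons of only 904 bp spread over 299.616 kb. Its first exon of 298 bp lies between 764 and 1062 bp inside the IGFBP5 start, within an IGFBP5 first exon of 1087 bp. The overlap is 33.0% of the exon bases of AC007563.2 and 4.63% of those of IGFBP5, and the other 5 exons of AC007563.2, with 606 bp, lie opposite no IGFBP5 exon.

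**Figure D1:**
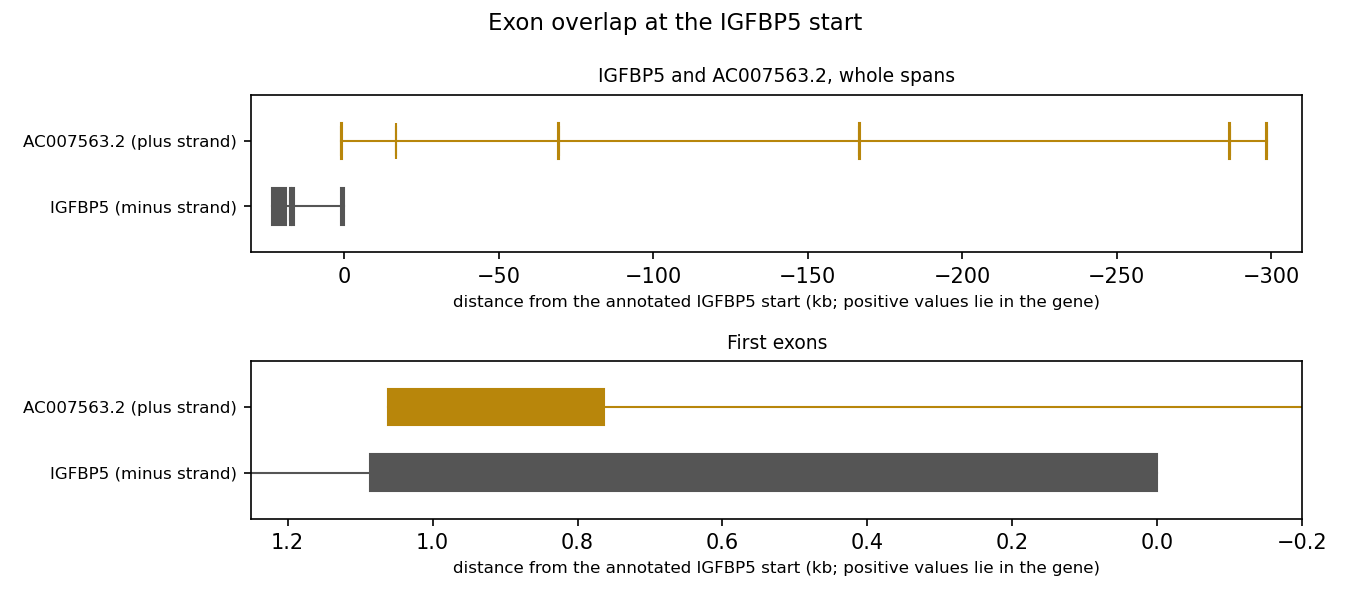
Exons (boxes) and introns (lines) of AC007563.2 and IGFBP5 against distance from the annotated IGFBP5 start in kb, over both whole spans (top) and around the first exons (bottom). The first exon of AC007563.2 sits wholly within the 1087 bp first exon of IGFBP5, and its other 5 exons run away from the gene over 299.616 kb.

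The shared stretch is shown because it is where counts of both genes can arise. It is given on the IGFBP5 strand, from GENCODE 29 transcripts on GRCh38 (chr2:216694464-216694761, minus strand), and it is entirely IGFBP5 coding sequence, bases 15 to 312 of 816. The capitals mark codons 52 to 59, a stretch rich in glycine and cysteine codons that is the signature of the IGF-binding domain at the amino end of the family:
IGFBP5 exon 1 opposite AC007563.2: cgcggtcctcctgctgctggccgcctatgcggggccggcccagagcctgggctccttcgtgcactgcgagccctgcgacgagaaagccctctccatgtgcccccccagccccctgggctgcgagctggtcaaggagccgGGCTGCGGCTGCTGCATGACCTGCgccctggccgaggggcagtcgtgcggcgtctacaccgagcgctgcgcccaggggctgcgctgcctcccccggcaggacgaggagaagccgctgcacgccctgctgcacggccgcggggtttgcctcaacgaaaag

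The same signature is set side by side for the 4 of the 9 genes that carry it, as 48-base windows of coding sequence from the same source, with the signature in capitals. The windows lie at chr2:216694587-216694634 (minus strand) for IGFBP5, chr2:216633758-216633805 (plus) for IGFBP2, chr7:45920910-45920957 (minus) for IGFBP3 and chr17:40443877-40443924 (plus) for IGFBP4, on GRCh38:
IGFBP5: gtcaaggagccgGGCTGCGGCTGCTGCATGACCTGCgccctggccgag
IGFBP2: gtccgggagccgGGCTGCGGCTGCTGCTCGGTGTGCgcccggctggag
IGFBP3: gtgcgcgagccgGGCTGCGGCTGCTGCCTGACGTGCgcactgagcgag
IGFBP4: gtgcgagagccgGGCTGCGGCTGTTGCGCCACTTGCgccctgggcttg

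Of the 24 signature bases of IGFBP5, IGFBP3 shared 22, and IGFBP2 and IGFBP4 shared 19 each. An in-frame match was found in 9 of 19516 protein-coding genes (0.0461%), namely IGFBP1 to IGFBP5 and the matricellular genes listed as CYR61, CTGF, WISP2 and WISP3. IGFBP6, which lacks part of the family's cysteine pattern in this domain, had no in-frame match.

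The tables held 776125 to 1018854 counts per SOX9 sgRNA library and 777960 to 881655 per control sgRNA library, a shallow depth at which 3 counts correspond to 2.92 to 4.31 CPM. CPM here is a gene's count as a share of its library's summed counts in the genes tested, corrected by TMM factors, which were 1.055 to 1.077 in SOX9 sgRNA libraries and 0.936 to 0.940 in control sgRNA libraries. The number of genes with a count was 20207 to 21082 in SOX9 sgRNA libraries and 18326 to 18818 in control sgRNA libraries. SOX9's own row had 37, 39 and 60 counts in SOX9 sgRNA libraries and 38, 52 and 44 in control sgRNA libraries (log2 fold change −0.22, SE 0.26, edgeR adjusted p = 0.70), so this row does not check the labels. Of the markers of the line itself, VIM had 194 counts over the SOX9 sgRNA libraries and 501 over the control sgRNA libraries (log2 fold change −1.61, edgeR adjusted p = 8.26e-12), and the epithelial keratins KRT7 (−0.97, adjusted p = 0.018) and KRT19 (−0.74, adjusted p = 1.83e-05) also fell. The other 4 epithelial markers tested were not called, with log2 fold changes from −0.68 (EPCAM) to 0.33 (KRT18). Of 5 basal markers 2 were tested and neither was called. Among the untested basal rows, KRT14 had 7 counts over the SOX9 sgRNA libraries and 39 over the control sgRNA libraries. KRT17 had 21 and 3 counts in those groups, and EGFR had 22 and 29. Of the receptors that define the triple-negative class, ESR1 had 0 to 7 counts and PGR 3 to 7 counts in any library, but ERBB2 had 156 to 213 counts in SOX9 sgRNA libraries and 141 to 183 in control sgRNA libraries. Exons of MIEN1 (571 bp) and PGAP3 (194 bp) lie opposite ERBB2. Whether the counts of these 3 receptor rows measure their RNA was not tested. Among 3 immune markers, CD3E was at 0 in every library and PTPRC had 1 count in 1 control sgRNA library, while CD68 had 31, 32 and 36 counts in SOX9 sgRNA libraries and 18, 11 and 21 in control sgRNA libraries. CD68 was not called (log2 fold change 0.74, edgeR adjusted p = 0.19). The row opposite CD68, ENSG00000233223, had 128 counts over the SOX9 sgRNA libraries and 104 over the control sgRNA libraries (0.05, edgeR adjusted p = 0.94). The summed raw CPM of the immune list was 35.3 to 41.2 in SOX9 sgRNA libraries and 13.6 to 27.0 in control sgRNA libraries. Apart from the 1 PTPRC count, this sum is the CD68 row again. The summed raw CPM of 3 fibroblast markers was 3.93 to 9.64 in SOX9 sgRNA libraries and 2.38 to 5.14 in control sgRNA libraries. Of the endothelial markers, VWF was at 0. The part of these differences in the results that follow was not tested. In bulk RNA, a change in the share of some cells and a change in RNA per cell cannot be told apart.

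Most counts lay in genes with an exon opposite another gene, and in pairs of a protein-coding and an antisense gene most lay on the antisense row. This bears on the marker values above and on every value that follows. Genes with an exon opposite another gene took 80.9 to 81.5% of the counts of each library, although they number 11223 of 57209. Among 2226 pairs of a protein-coding gene and an antisense gene with at least 20 counts, the antisense row held more counts in 1532 (68.8%), and the antisense rows together held 81.7 to 83.6% of the pairs' counts in each library. VIM-AS1 had 6239 counts over the SOX9 sgRNA libraries and 14715 over the control sgRNA libraries, far above VIM itself, and its log2 fold change was −1.47 (edgeR adjusted p = 8.20e-33). KRT7-AS had 2448 counts in SOX9 sgRNA libraries and 3975 in control sgRNA libraries, while KRT7 had 81 in SOX9 sgRNA libraries and 136 in control sgRNA libraries. The tables were counted with featureCounts strand setting 1, and the sources used here do not say whether that setting matches the orientation of this kit's reads. If it is the reverse of that orientation, a gene's own row holds mainly fragments read on the other strand, its low count says little about the gene's RNA, and that RNA is counted only where an opposite gene has exons. Values are therefore given as counts of a row, for genes with and without an opposite partner alike.

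The row opposite IGFBP5 rose in SOX9 sgRNA cells to about 2 times its level in control sgRNA cells, and IGFBP5's own row had few counts in either group. AC007563.2 had 96, 95 and 95 counts in SOX9 sgRNA libraries, against 37, 40 and 42 in control sgRNA libraries. Every SOX9 sgRNA library lay above every control sgRNA library, as for 11.7% of all genes tested. The mean level was 111 ± 16.1 CPM in SOX9 sgRNA libraries and 53.5 ± 5.98 CPM in control sgRNA libraries (SD, n = 3 each), and the log2 fold change was 1.04 (SE 0.22) with an edgeR quasi-likelihood adjusted p = 0.000434. The pooled counts gave a ratio of 2.04, with an exact 95% counting interval of 1.64 to 2.55; this and all other intervals cover counting error only. Of all 7959 genes tested, 238 (2.99%) rose and 479 (6.02%) fell in SOX9 sgRNA libraries, and among 1384 antisense genes lying opposite a protein-coding exon 5.13% rose and 11.3% fell. The call on AC007563.2 remained in 12 of 12 other ways of processing, with log2 fold changes of 0.95 to 1.22 and adjusted p-values of 3.82e-05 to 0.0077. Scaling by library totals instead of TMM gave the highest of these fold changes, 1.22, and a median of 0.19 over all genes tested, beside 0.01 with TMM.

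IGFBP5's own row had 2, 6 and 3 counts in SOX9 sgRNA libraries, against 1, 0 and 0 in control sgRNA libraries. The groups did not overlap, as for 11.7% of the genes tested in that direction. The sums of 11 and 1 counts were too low for the filter that selects genes for testing, so this row is not among those genes. The share of rows with so few counts whose groups do not overlap was not computed. The ratio of the pooled counts was 9.35 with an interval of 1.36 to 402, and with no filter the edgeR log2 fold change was 2.87 (SE 1.57, adjusted p = 0.62). Taking both rows together, IGFBP5's own row held 3.70% of the counts in SOX9 sgRNA libraries (exact 95% interval 1.86 to 6.53%) and 0.833% in control sgRNA libraries (0.0211 to 4.56%), intervals that overlap. Over all 6 libraries, 405 of the counts at the pair lay on the AC007563.2 strand and 12 on the IGFBP5 strand. Per kb of exon, AC007563.2 averaged 122 ± 17.8 CPM in SOX9 sgRNA libraries and 59.2 ± 6.62 in control sgRNA libraries, and IGFBP5 averaged 0.679 ± 0.462 and 0.0691 ± 0.120 in those groups (SD, n = 3 each). The tables give 1 count per gene, so counts from the 298 shared bases and from the other 606 bases of AC007563.2 cannot be told apart, and neither can RNA of AC007563.2 itself and IGFBP5 messenger RNA counted on the other strand. If the strand setting is reversed, the counts on the AC007563.2 row that come from the shared exon are IGFBP5 RNA and the rise may be that of IGFBP5. The shares above would then not give either gene's part of the RNA. RNA from the 6144 IGFBP5 exon bases with no AC007563.2 exon opposite would fall in neither row.

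The neighbourhood of the pair held few counts. Within the span of AC007563.2 there are 9 other annotated rows, 8 of which had 0 counts in every library, with 1 count in all. The rows PSMB3P2 and RPL31P14 next to the IGFBP2 and IGFBP5 genes were at 0 throughout, as was TNP1, a sperm nuclear protein gene and the nearest protein-coding gene on that side. RPL37A, a ribosomal protein gene with near-identical copies elsewhere and the nearest protein-coding gene on the IGFBP2 side, had 32, 24 and 32 counts in SOX9 sgRNA libraries and 29, 25 and 27 in control sgRNA libraries (log2 fold change −0.11, edgeR adjusted p = 0.90).

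**Figure D2:**
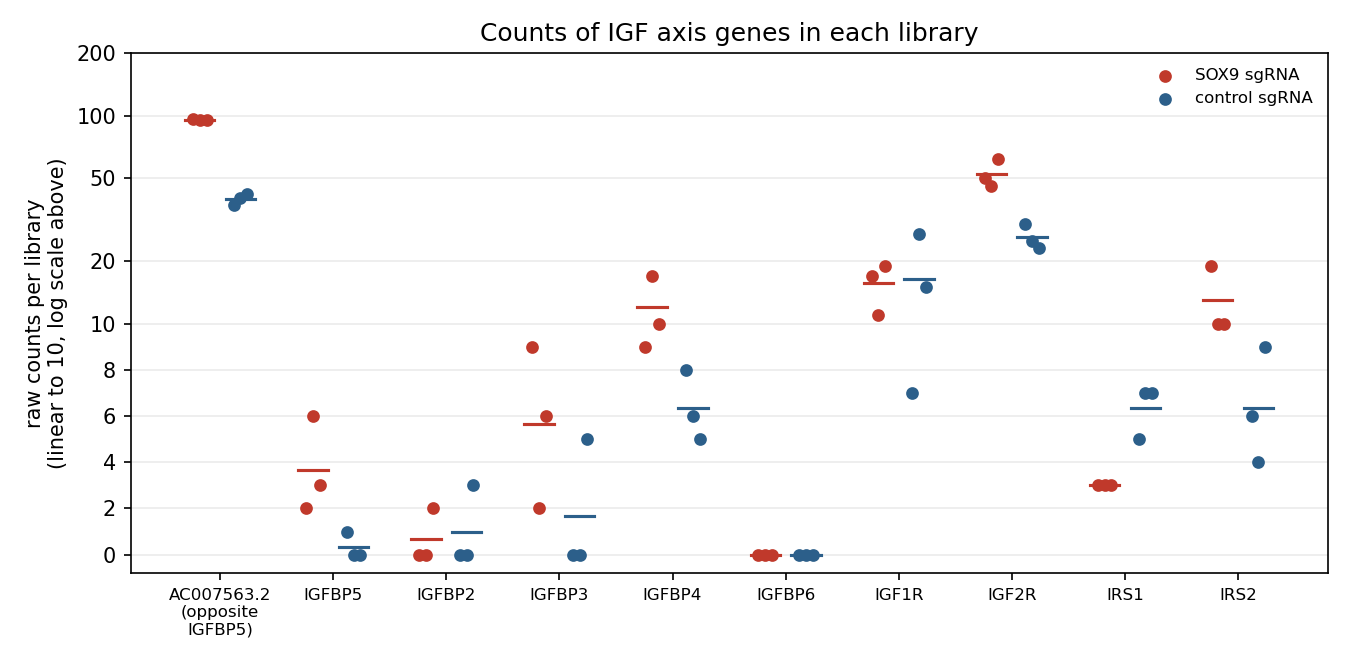
Raw counts of AC007563.2 and of the 9 IGF axis genes in each library, 3 SOX9 sgRNA libraries (red, left of each pair) and 3 control sgRNA libraries (blue); lines are group means, and the axis is linear to 10 and logarithmic above. In these raw counts AC007563.2, IGFBP5, IGFBP4, IGF2R and IRS2 are higher in every SOX9 sgRNA library than in any control sgRNA library, and IRS1 is lower. In CPM, IGFBP4 and IRS2 overlap between the groups. IGFBP2, IGFBP3 and IGF1R overlap here, and IGFBP6 is at 0 in all 6 libraries.

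The own rows of IGFBP2, IGFBP3, IGFBP4 and IGFBP6 had at most 17 counts in any library, and none passed the filter for testing. IGFBP4 (chr17:38599702-38613983, plus strand, GRCh37 as for all genes that follow), which mostly restrains IGF action, had the most counts of these 4, with 9, 17 and 10 counts in SOX9 sgRNA libraries and 8, 6 and 5 in control sgRNA libraries. Its CPM values overlapped between the groups, with means of 14.2 ± 6.84 CPM in SOX9 sgRNA libraries and 8.50 ± 1.90 CPM in control sgRNA libraries (SD, n = 3 each), and the ratio of 1.61 had an interval of 0.899 to 2.97. IGFBP3 (chr7:45951949-45961473, minus strand), the main carrier of IGFs in blood, had 9, 2 and 6 counts in SOX9 sgRNA libraries and 0, 0 and 5 in control sgRNA libraries. These groups overlapped too, and the pooled ratio was 2.89 (1.02 to 10.0). IGFBP2, which lies beside IGFBP5 on chromosome 2 at chr2:217497551-217529159 (plus strand), had 0, 0 and 2 counts in SOX9 sgRNA libraries and 0, 0 and 3 in control sgRNA libraries, so counts were found in 1 library of each group. IGFBP6 (chr12:53491220-53496129, plus strand), which prefers IGF2 as its ligand, was at 0 in all 6 libraries, which allows up to 2.92 to 4.31 CPM per library. With no filter, the edgeR log2 fold changes were 0.68 (SE 0.60, adjusted p = 0.71) for IGFBP4, 1.40 (SE 1.04, adjusted p = 0.70) for IGFBP3 and −0.86 (SE 1.82, adjusted p = 0.87) for IGFBP2.

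Of the 9 genes' own rows, 2 passed the filter, both receptors, and edgeR called 0 of them at an adjusted p of 0.05, against 9.01% of all genes tested; 1 had an unadjusted p under 0.05, and DESeq2 also called 0. That 1 was IGF2R (chr6:160390131-160534539, plus strand), with 50, 46 and 62 counts in SOX9 sgRNA libraries, against 30, 25 and 23 in control sgRNA libraries. All SOX9 sgRNA libraries were above all control sgRNA libraries, as for 11.7% of all genes tested. The level was 60.1 ± 0.298 CPM in SOX9 sgRNA libraries and 35.0 ± 4.46 CPM in control sgRNA libraries (SD, n = 3 each), which is 0.78 on the log2 scale (SE 0.28), and it missed the threshold with an adjusted p of 0.066 in edgeR. The counting ratio was 1.72 (1.30 to 2.29), and the SD of 0.298 CPM is smaller than counting error alone would give. IGF2R passed the threshold when libraries were scaled by their totals (0.96, adjusted p = 0.015) and under a stricter filter on low counts (0.81, adjusted p = 0.041).

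IGF1R (chr15:99192200-99507759, plus strand), the signalling receptor, had 17, 11 and 19 counts in SOX9 sgRNA libraries and 7, 27 and 15 in control sgRNA libraries. The control sgRNA libraries held both the highest and the lowest value. The mean level was 17.8 ± 3.16 CPM in SOX9 sgRNA libraries and 21.7 ± 12.5 CPM in control sgRNA libraries (SD, n = 3 each), a difference of −0.29 on the log2 scale (SE 0.43; adjusted p = 0.78 in edgeR) that became 0.20 (adjusted p = 0.89) without control sgRNA replicate 2. The counting ratio was 0.815 (0.534 to 1.24).

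**Figure D3:**
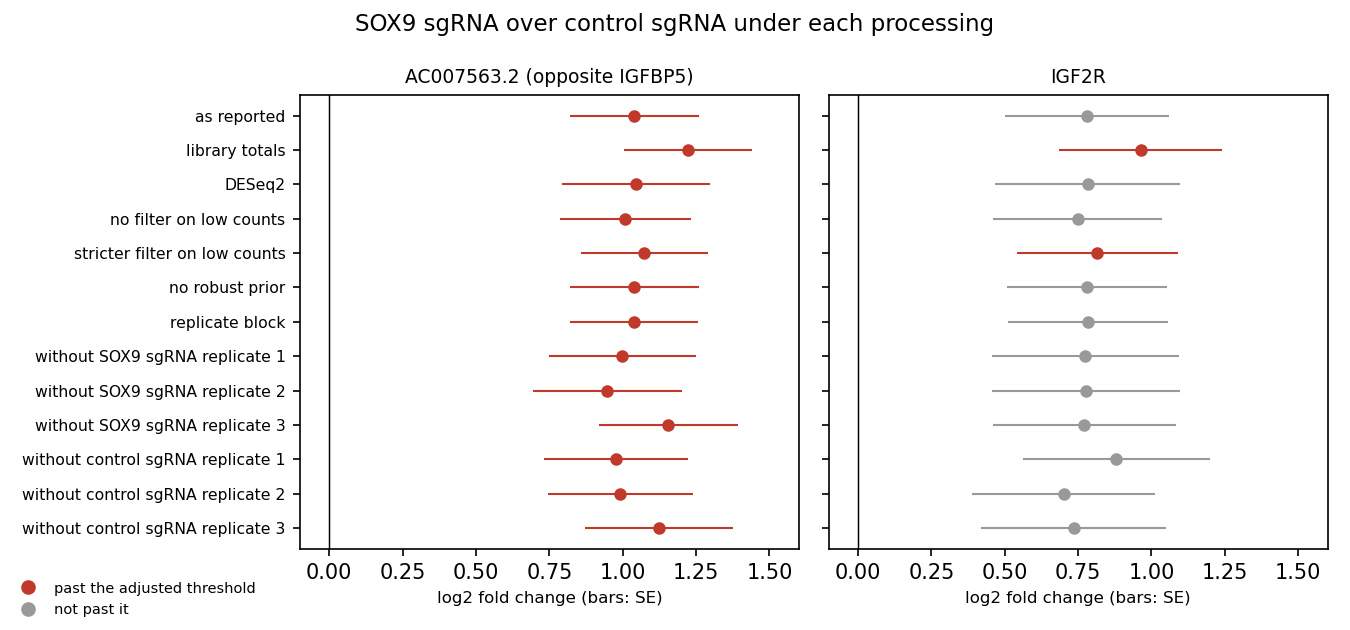
Log2 fold change of SOX9 sgRNA over control sgRNA with its SE for AC007563.2 (left) and IGF2R (right) as reported and under 12 other ways of processing; red points pass an adjusted p of 0.05. AC007563.2 passes under all of those shown, and IGF2R passes only under library totals and the stricter filter.

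The adaptor rows had counts in opposite directions, and neither passed the filter for testing. IRS1 (chr2:227596033-227664475, minus strand), a docking protein that is phosphorylated by IGF1R and the insulin receptor, had 3 counts in each SOX9 sgRNA library, against 5, 7 and 7 in control sgRNA libraries. The groups did not overlap, as for 12.8% of the genes tested in that direction. IRS1 was not among the genes tested, and the share among rows with so few counts was not computed. The mean level was 3.48 ± 0.503 CPM in SOX9 sgRNA libraries and 8.54 ± 1.72 CPM in control sgRNA libraries (SD, n = 3 each), close to the limit of detection, and the ratio was 0.402 (0.160 to 0.934). IRS2 (chr13:110406184-110438915, minus strand), its paralogue, had 19, 10 and 10 counts in SOX9 sgRNA libraries and 6, 4 and 9 in control sgRNA libraries, or 15.2 ± 6.85 CPM and 8.68 ± 3.97 CPM in those groups (SD, n = 3 each). Its CPM values overlapped between the groups, with a ratio of 1.74 (0.984 to 3.20). With no filter, the edgeR log2 fold changes were −1.30 (SE 0.87, adjusted p = 0.70) for IRS1 and 0.77 (SE 0.59, adjusted p = 0.70) for IRS2. A small gene within IRS2 on the same strand, ENSG00000255813, shares 444 bp with it and had 1 count, in a SOX9 sgRNA library.

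Set per kb of exon, the levels of the 9 genes' own rows in SOX9 sgRNA libraries ran in the order IGFBP4 (6.43 ± 3.09 CPM per kb), IGF2R (6.04 ± 0.0300), IRS2 (2.17 ± 0.978), IGFBP3 (1.44 ± 0.930), IGF1R (1.31 ± 0.234), IGFBP5 (0.679 ± 0.462), IRS1 (0.349 ± 0.0506), IGFBP2 (0.136 ± 0.236) and IGFBP6 at 0. Of these neighbours, only IGF2R and IRS2 differed by more than their SDs added together. In control sgRNA libraries the levels were 3.84 ± 0.861 CPM per kb for IGFBP4, 3.51 ± 0.448 for IGF2R, 1.61 ± 0.923 for IGF1R, 1.24 ± 0.568 for IRS2, 0.858 ± 0.173 for IRS1, 0.537 ± 0.929 for IGFBP3, 0.302 ± 0.522 for IGFBP2 and 0.0691 ± 0.120 for IGFBP5 (SD, n = 3 each), with IGFBP6 at 0. There, only IGF2R and IGF1R differed from each other as neighbours by more than their SDs added together. An SD from 3 libraries can fall below counting error, as for IGF2R in SOX9 sgRNA libraries, so these orders are descriptions only. IGFBP5 thus stood sixth in SOX9 sgRNA libraries and eighth in control sgRNA libraries, places that rest on 11 and 1 counts.

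Around these genes, the wider IGF pathway was read from 9 lists with 80 symbols, of which 79 were matched and 6 were at 0 in every library. Of their own rows 35 passed the filter, and edgeR called 0 higher and 0 lower, against 9.01% called of all genes tested. An unadjusted p under 0.05 was seen for 2 of the 35 and for 1632 of all 7959 genes, and DESeq2 called 0 of the 35. Their median log2 fold change was 0.09, beside 0.01 over all genes tested. Of the 44 rows lying opposite these genes 30 were tested, of which 1 rose, AC007563.2, and 3 fell, with a median of 0.07. These few calls are near the shares over all genes (2.99% rose and 6.02% fell) and over antisense genes (5.13% and 11.3%), so they mark nothing particular to the pathway. The SE of the tested own rows ran from 0.16 (IGFBP7) to 0.72 (GRB10). For the opposite rows it ran from 0.09 (PRADX, opposite CTSD) to 0.54 (ENSG00000273226, opposite RPS6). Shares called were not compared among rows of like counts. The ligand rows had few counts: IGF1 had 2, 1 and 8 counts in SOX9 sgRNA libraries and 1 in each control sgRNA library, IGF2 had 1 count in all, and INS was at 0. The medians of the tested own rows were 0.19 for the 3 receptors, 0.13 for 3 proteases and inhibitors and 0.26 for 5 adaptors. INSR, the insulin receptor, gave 0.19 (SE 0.46). The medians were 0.14 for 8 PI3K and AKT genes, −0.06 for 9 mTOR and TSC genes and −0.44 for 4 FOXO targets. Those 4 were CITED2, KLF6, PIK3IP1 and SESN3, and the rows of FOXO1, FOXO3 and FOXO4 did not pass the filter.

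The 3 opposite rows that fell lie opposite IGFBP7, RPS6KB2 and MLST8. IGFBP7-AS1, which overlaps 94 bp of IGFBP7, a low-affinity relative of the IGFBPs found in vessel walls and epithelium, had 151, 162 and 163 counts in SOX9 sgRNA libraries, against 204, 176 and 206 in control sgRNA libraries (log2 fold change −0.53, SE 0.14, edgeR adjusted p = 0.0062). The groups did not overlap, as for 12.8% of all genes tested in that direction. IGFBP7's own row, which had 120, 114 and 133 counts in SOX9 sgRNA libraries and 108, 118 and 120 in control sgRNA libraries, more than any of the 9 genes, gave −0.15 (SE 0.16, edgeR adjusted p = 0.68), and 0.037 when scaled by library totals. POLR2B also lies opposite IGFBP7, with 270 bp of overlap. It had 207 counts over the SOX9 sgRNA libraries and 185 over the control sgRNA libraries (−0.06, SE 0.21, edgeR adjusted p = 0.92). RPS6KB2-AS1, opposite the S6 kinase gene RPS6KB2, had 161, 158 and 195 counts in SOX9 sgRNA libraries and 195, 209 and 191 in control sgRNA libraries (−0.44, SE 0.13, edgeR adjusted p = 0.018). Its CPM did not overlap between the groups, beside the same 12.8% of genes, and RPS6KB2 itself gave −0.52 (SE 0.37, adjusted p = 0.46). BRICD5, opposite MLST8, a subunit of both mTOR complexes, had 23, 38 and 35 counts in SOX9 sgRNA libraries and 42, 69 and 36 in control sgRNA libraries (−0.83, SE 0.28, edgeR adjusted p = 0.0497). Its raw counts overlapped between the groups, and its CPM did not, again as for 12.8% of all genes tested. Unlike AC007563.2, these 3 calls depended on the processing. With library totals IGFBP7-AS1 gave −0.35 (adjusted p = 0.098) and RPS6KB2-AS1 −0.26 (adjusted p = 0.21). IGFBP7-AS1 also missed the threshold without SOX9 sgRNA replicate 3 (adjusted p = 0.074) or control sgRNA replicate 3 (0.056), RPS6KB2-AS1 without SOX9 sgRNA replicate 1 (0.059) or 3 (0.063) or control sgRNA replicate 3 (0.056), and BRICD5 under 9 of 12 alternatives, with adjusted p-values of 0.023 to 0.35 over all 12.

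**Figure D4:**
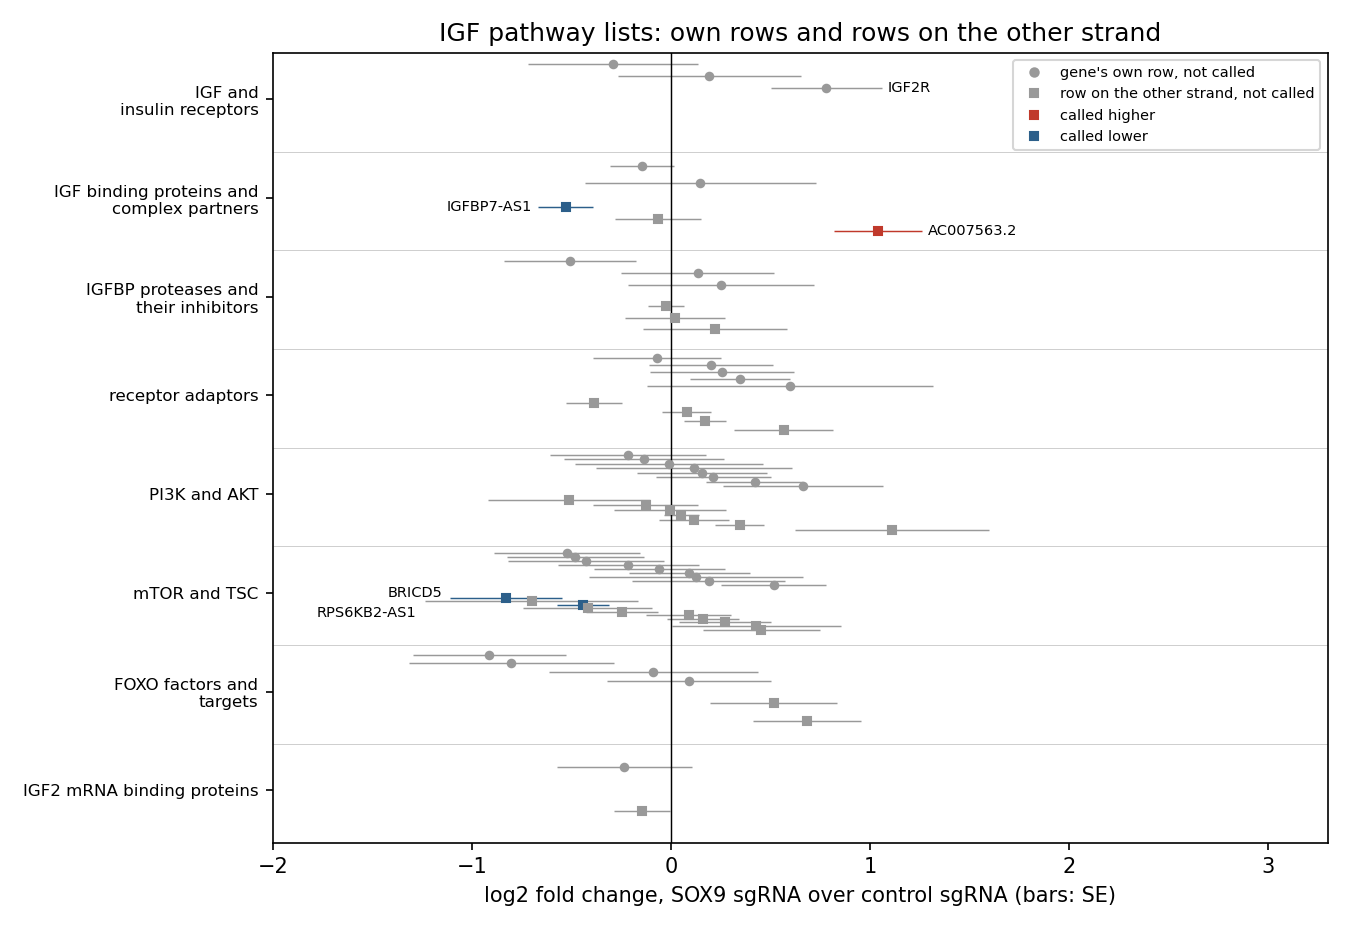
Log2 fold change of SOX9 sgRNA over control sgRNA, with SE, for each tested gene of the IGF pathway lists (circles) and for the tested rows on the other strand (squares); red rose and blue fell at an edgeR adjusted p of 0.05. Every called point is a row on the other strand, AC007563.2 at 1.04 and the 3 lower ones between −0.83 and −0.44.

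The IGFBP5 promoter is shown because the row that moved starts within the first exon downstream of it. The 250 bases before the RefSeq start (chr2:216695550-216695799, minus strand, GRCh38.p14) carry one TATTTAAA, in capitals, which begins 31 bases before the start; these letters occur on either strand in 1.79% of 35116 promoters of that length:
IGFBP5 promoter: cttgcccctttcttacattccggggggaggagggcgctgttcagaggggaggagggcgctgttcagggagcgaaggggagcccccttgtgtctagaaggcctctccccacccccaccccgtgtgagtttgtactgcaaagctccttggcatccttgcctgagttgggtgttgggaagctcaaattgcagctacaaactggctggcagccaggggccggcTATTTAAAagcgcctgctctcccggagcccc

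The core letters bound by SOX factors were searched on both strands in the 11 promoter windows of the 9 genes, 3 of them of IGFBP2. ACAATG was in 0 of 11 windows, against 9.29% of all promoters. ACAAAG was in 1 of 11, that of IGFBP6, against 13.7% of all promoters. The absence of these letters describes the windows alone.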

How the data were processed

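Gene counts were analysed from 6 libraries made with a SMARTer stranded Pico kit from RNeasy-purified total RNA, per the labels' protocols. The authors deposited whole-number counts without normalization. Reads were aligned with STAR 2.7.10a, per the submitters' processing notes, and counted with featureCounts 1.6.2 with strand setting 1 against the exons of Ensembl release 75 (GRCh37), each fragment counting for every gene it overlaps, per the file headers. The strand setting decides which of 2 overlapping genes receives a read, and no source at hand says whether it fits the kit; a reversed setting would leave own rows with fragments of the other strand.

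Counts were tested over the whole table in R 4.3.3 with edgeR 4.0.16 (filterByExpr with a minimum count of 10, TMM, robust quasi-likelihood test, Benjamini-Hochberg over 7959 genes, threshold 0.05), with no replicate block. The procedure was tested on simulated data. CPM values are means with SD. Alternatives were library totals, DESeq2 1.42.0, no filter, a stricter filter (20 counts in 3 libraries), no robust prior, a replicate block and each library left out. Opposite rows came from bedtools 2.31.1. Ratios are pooled counts over scaled library sizes with exact binomial 95% intervals. GRCh38 sequences are from GENCODE 29 and RefSeq; GRCh37 coordinates are from the tables. Within groups, libraries differed by more than sampling noise (chi-square per degree of freedom 1.97 to 2.44). Named genes were the 9 genes, overlapping and neighbouring rows, SOX9, called pathway genes and the 5 closest in likeness; they and the lists were chosen with earlier results of these data known.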

Additional observations from a re-analysis of the deposited data

How the results depend on the processing

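The rise of AC007563.2 and the absence of lower calls among the 9 genes' own rows held in all 12 alternatives run. Other counts moved. Over all genes, 238 were called higher and 479 lower; library totals gave 625 and 249, DESeq2 gave 130 higher, no filter gave 151 higher, and leaving out 1 library gave 161 to 207 higher and 364 to 430 lower. Among the 9 genes' own rows, and among the pathway lists' own rows, 0 were called higher, but 1 (IGF2R) under library totals and 1 under the stricter filter. Opposite rows of the lists called higher numbered 1 as reported, 5 under library totals, 2 under the stricter filter and 1 to 2 when a library was left out; those called lower numbered 3, 0 under library totals and 1 to 3 when a library was left out. Signs turned for IGF1R without control sgRNA replicate 2 (0.20; −0.66 to 0.20 over the libraries left out) and for IGFBP7 under library totals (0.037); the cause was not tested.

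Same-numbered libraries did not deviate together (correlations −0.00287, 0.0193 and −0.0109), so the numbers were not taken as pairs. With a replicate block, 175 genes were called higher and 399 lower, AC007563.2 gave 1.04 (adjusted p = 0.0029), and BRICD5 missed the threshold (adjusted p = 0.066). Most IGFBP rows had fewer than 10 counts per library, and the parts of depth and of the strand setting in this were not tested.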

Other observations

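Across the 6 libraries, the genes whose log2 CPM followed AC007563.2 most closely, among 2456 tested genes whose mean log2 CPM reached 6, were 4 antisense rows, ENSG00000267458 opposite CALR (Pearson r = 0.994), ENSG00000271795 opposite FAT2 (0.989), ENSG00000236883 opposite RIPK4 (0.988) and ENSG00000272149 opposite CRTAP (0.986), and the protein-coding HSPA1L opposite HSPA1A (0.984). All 5 lie opposite another gene, as do the 5 named below for IGFBP5's own row, and the share of the 2456 genes that do was not counted. ENSG00000236883 averaged 295 CPM in SOX9 sgRNA libraries and 150 CPM in control sgRNA libraries, and HSPA1L averaged 622 CPM in SOX9 sgRNA libraries and 313 CPM in control sgRNA libraries. HSPA1L shares sequence with its heat shock paralogues, so its value is uncertain. The genes closest to IGFBP5's own row were ENSG00000264769 opposite MAFG (0.975), STRADB opposite TRAK2 (0.964), MYO15B opposite RECQL5 (0.952), IPPK opposite CENPP (0.946) and DLGAP4-AS1 opposite DLGAP4 (0.945), a likeness that rests on 12 IGFBP5 counts. The points share libraries, depth and the group difference, so these are descriptions without a p.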
